A study of Homo sapiens with 6 samples.

Results

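LINC00511, AGAP2-AS1, LINC00662 and LINC01234 are long noncoding RNA (lncRNA) genes described as promoting tumour growth, and all were higher in A549 than in HBE in the deposited table. They were chosen by name, as every annotated transcript of these 4 genes in that table, with their higher level in A549 already known. This gave 9 transcripts of 4 genes, out of 688 annotated transcripts of 602 genes and 1437 transcripts in all. Because the difference between the lines chose them, it is given below as a description without a test.

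RNA of A549, a human lung adenocarcinoma cell line, was compared with RNA of HBE, a line of normal lung epithelium whose name the labels also spell HEB, with 3 samples per line. A549 grew in DMEM and HBE in RPMI-1640, both with serum and antibiotics, so the line and its medium cannot be told apart. Each group is 1 cell line, no label states separate cultures, and the spread between samples may therefore be technical. The libraries were made from total RNA with an mRNA kit and held 49376413 to 57664347 fragments, so that 1 count was worth 0.0173 to 0.0203 CPM (counts scaled to a common library size). MIR205HG, an lncRNA of basal airway epithelium, had no count in A549 and 76.2 to 213 CPM in HBE. Of the alveolar and club markers, LINC00261 was at 0.357 to 0.902 CPM in A549 and had no count in HBE, while SFTA1P had no count in A549 and 2.40 to 6.64 CPM in HBE. The mesenchymal markers FENDRR and MIR100HG together had 0.243 to 1.05 CPM in A549 and 0.943 to 1.35 CPM in HBE, but went opposite ways. FENDRR had no count in A549 and 1.14 ± 0.204 CPM in HBE (SD, n = 3). MIR100HG-227 and MIR100HG-231 were higher in A549, where their means were 0.132 and 0.0784 FPKM. FENDRR made up nearly all of the HBE sum. The MIR100HG log2 fold changes of 5.30 and 6.63 therefore rest on almost no HBE count and measure no fold. Of 5 blood and endothelial marker genes, 0 were in the table. That table holds only lncRNA transcripts selected by the authors as differing between the lines. A marker's absence from it therefore says nothing about these cells. Protein-coding markers were not analysed here.

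lncRNAs are transcribed and spliced much like messenger RNAs but are not translated into large proteins. In lung cancer cells several have been described as guides for chromatin-modifying complexes in the nucleus, and others as binding partners of microRNAs or RNA-binding proteins in the cytoplasm. LINC00511 and AGAP2-AS1 have been described as partners of the histone methyltransferase EZH2 in lung cancer cells, LINC01234 as a partner of microRNAs, and LINC00662 as promoting growth in several carcinomas. One lncRNA gene often gives many isoforms from several start sites, so the isoform measured matters when a probe or primer is designed.

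The transcripts differed in where they begin. AGAP2-AS1-201 (ENST00000542466, chromosome 12, 57726271 to 57728356, plus strand, GRCh38) has 2 exons and starts 31 bases after the RefSeq gene start. LINC01234-203 (ENST00000550223, chromosome 12, 113745704 to 113773663, minus strand) has 3 exons and starts 20 bases after it. LINC01234-201 (ENST00000510694, 113751014 to 113773639) has 4 exons and starts 44 bases after it. These 3 transcripts thus begin at the annotated gene start.

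LINC00662-206 (ENST00000590523, chromosome 19, 27790491 to 27793940, minus strand) has 3 exons and starts at the RefSeq start itself. LINC00662-207 (ENST00000590677, 27715786 to 27793394) has 4 exons and starts 546 bases downstream. LINC00662-201 (ENST00000561521, 27730273 to 27746230) has 3 exons and starts 47710 bases downstream. LINC00511-213 (ENST00000581549, chromosome 17, 72598041 to 72640472, minus strand) has 5 exons and starts at the RefSeq start. LINC00511-276 (ENST00000649881, 72403327 to 72470583) and LINC00511-292 (ENST00000650313, 72403322 to 72421304), each with 3 exons, start 169889 and 219168 bases downstream. Those late-starting LINC00511 isoforms share 1490 exon bases, all in the last exon, and LINC00511-292 shares no exon base with LINC00511-213.

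The exon junctions below tell the isoforms apart: none of these sequences occurs in any other GENCODE release 29 transcript. Each shows 20 bases on either side of the junction, read 5′ to 3′ along the RNA, with the downstream exon in capitals.
LINC00511-213: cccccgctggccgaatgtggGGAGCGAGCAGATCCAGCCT
LINC00511-276: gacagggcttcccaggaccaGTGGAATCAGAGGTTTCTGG
LINC00511-292: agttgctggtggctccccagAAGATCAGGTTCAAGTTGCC
AGAP2-AS1-201: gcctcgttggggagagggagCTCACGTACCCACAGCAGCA
LINC00662-201: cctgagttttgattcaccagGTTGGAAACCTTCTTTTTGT
LINC00662-206: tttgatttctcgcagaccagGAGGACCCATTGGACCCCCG
LINC00662-207: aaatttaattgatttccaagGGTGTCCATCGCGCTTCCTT
LINC01234-201: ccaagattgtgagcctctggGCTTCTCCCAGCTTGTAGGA
LINC01234-203: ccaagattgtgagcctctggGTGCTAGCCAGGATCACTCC
In LINC01234 the lower-case stretch is the same in both isoforms, which splice 1 upstream exon to different next exons. Junctions matter because 100% of the bases of LINC01234-203 and of LINC00511-292 lie in exons of other GENCODE transcripts of their genes, so their counts rest on how reads were divided. The same holds for 94.5% of LINC00511-276, 84.2% of LINC00511-213 and 77.5% of LINC00662-207, so their counts rest largely on that division too. By contrast 87.7% of LINC00662-201, 89.2% of LINC01234-201 and 79.0% of LINC00662-206 is exonic in no other transcript of the gene.

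Every transcript of these genes was chosen with its higher level in A549 known, wherever it begins. That direction therefore says nothing about the promoters. The promoters at the gene starts are shown as a description only. They span 250 bases before to 50 after the RefSeq start (RefSeq, GRCh38.p14), and capitals mark matches to 6 motifs searched on both strands. The motifs were the GC box GGGCGG, the E-box CACGTG, the CCAAT box CCAAT, the TATA box TATAAA, the AP-1 site TGACTCA and the antioxidant response element core TGACNNNGC.
LINC00511 (chr17:72640423-72640722, minus strand): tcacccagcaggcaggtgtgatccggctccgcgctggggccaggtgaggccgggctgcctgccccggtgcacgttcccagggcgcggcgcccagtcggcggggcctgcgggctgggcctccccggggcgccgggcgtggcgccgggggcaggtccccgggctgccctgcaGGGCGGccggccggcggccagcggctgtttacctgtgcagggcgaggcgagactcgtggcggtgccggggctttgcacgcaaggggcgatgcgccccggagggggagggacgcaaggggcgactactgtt
AGAP2-AS1 (chr12:57725990-57726289, plus strand): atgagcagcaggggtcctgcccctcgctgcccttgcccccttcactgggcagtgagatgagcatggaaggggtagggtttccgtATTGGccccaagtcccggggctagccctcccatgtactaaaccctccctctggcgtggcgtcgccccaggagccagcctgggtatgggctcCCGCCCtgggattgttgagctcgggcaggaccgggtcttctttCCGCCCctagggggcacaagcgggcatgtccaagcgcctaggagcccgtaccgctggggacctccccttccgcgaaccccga
LINC00662 (chr19:27793891-27794190, minus strand): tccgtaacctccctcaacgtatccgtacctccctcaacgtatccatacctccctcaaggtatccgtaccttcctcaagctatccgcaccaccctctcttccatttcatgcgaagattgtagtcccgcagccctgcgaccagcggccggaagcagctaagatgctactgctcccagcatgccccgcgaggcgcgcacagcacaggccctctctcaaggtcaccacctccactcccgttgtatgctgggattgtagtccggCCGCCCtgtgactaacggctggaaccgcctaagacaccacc
LINC01234 (chr12:113773634-113773933, minus strand): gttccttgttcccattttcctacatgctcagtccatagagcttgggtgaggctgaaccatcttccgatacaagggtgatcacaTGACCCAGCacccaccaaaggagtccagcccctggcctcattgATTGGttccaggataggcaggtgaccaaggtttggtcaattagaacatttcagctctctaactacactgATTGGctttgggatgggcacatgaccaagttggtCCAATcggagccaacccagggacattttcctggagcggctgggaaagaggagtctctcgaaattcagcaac
The promoters had little in common. LINC00511 was 78% G and C with 35 CpG dinucleotides, AGAP2-AS1 66.7% with 17, LINC00662 59.3% with 20 and LINC01234 51% with 4, against medians of 58.7% and 14 over 35116 RefSeq promoters. The GC box, which can bind SP1 and related factors, matched once in LINC00511, once in LINC00662 and 2 times in AGAP2-AS1, and occurs in 45.0% of all promoters of this length. The CCAAT box matched 3 times in LINC01234 and once in AGAP2-AS1, and occurs in 34.6%. The antioxidant response element core matched once in LINC01234 and occurs in 13.3%. The E-box, TATA box and AP-1 letters were in none of the 4 windows, and occur in 7.26%, 11.5% and 4.95% of all promoters. A match describes letters and not a bound site.

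All 9 transcripts were higher in A549 in every sample: the 3 A549 counts lay above the 3 HBE counts for each. Of all 1437 transcripts, 47.3% did not overlap between the lines with A549 higher. By edgeR's quasi-likelihood test 99.9% passed the threshold in either direction and 47.6% with A549 higher. Since this contrast chose the transcripts, nothing is read from their count. For 7 of the 9 there was no count in any HBE sample, as for 28.6% of the whole table. Among the 301 annotated transcripts with a positive log2 fold change, chosen in the same direction, that share was 53.8%. Over the 3 HBE libraries the limit that a count of 0 allows, at 3 counts, is 0.0191 CPM, which covers counting error only. In these bulk samples, fewer cells that make a transcript and less of it per cell cannot be told apart.

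**Figure D1:**
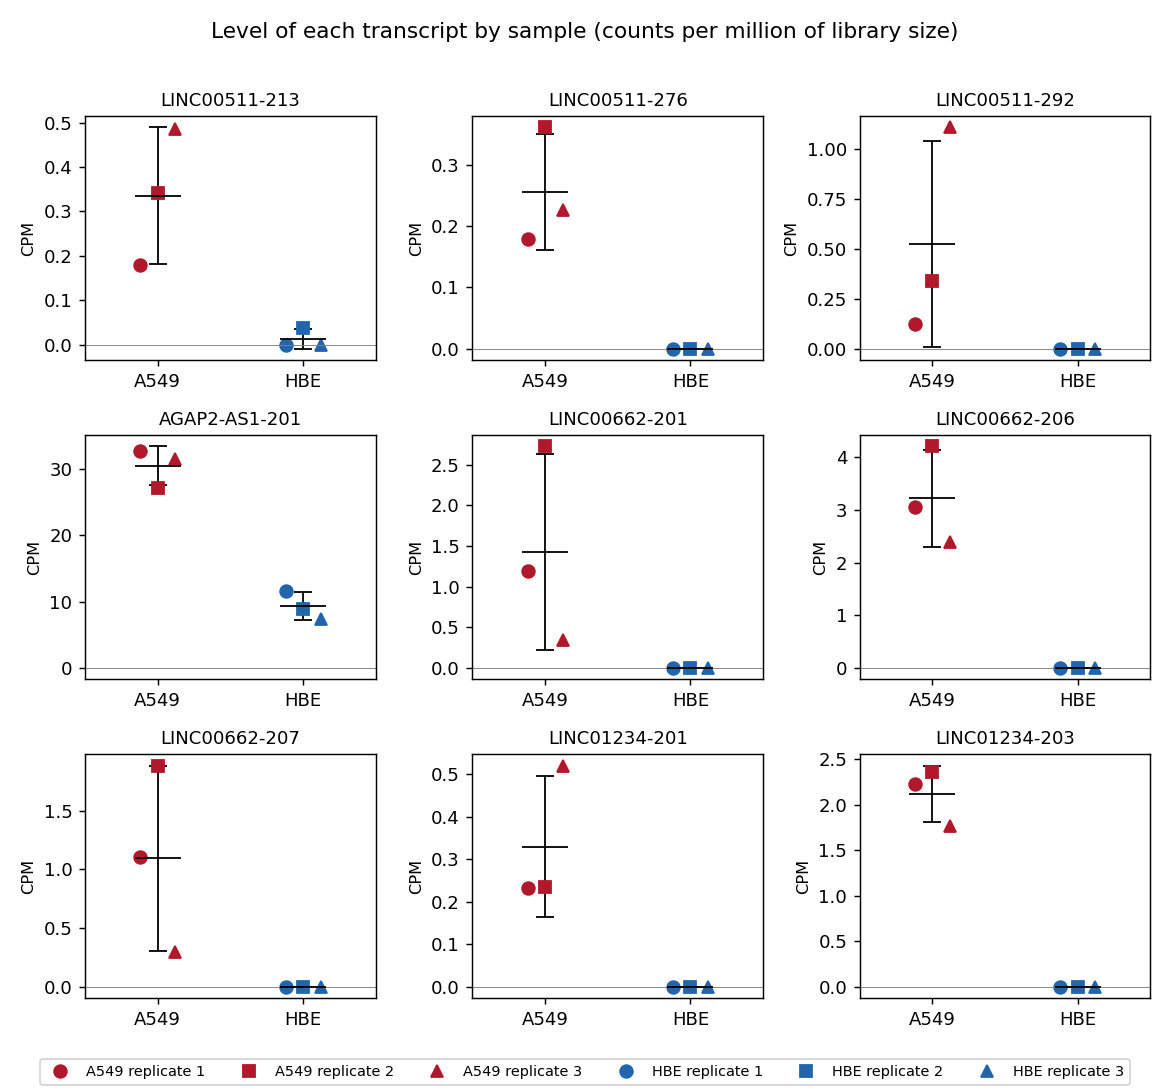
CPM of each transcript in the 3 A549 samples (red) and the 3 HBE samples (blue), with the mean and SD of each line in black; every panel has its own scale from about 0. AGAP2-AS1-201 is well above 0 in both lines, LINC00511-213 has 2 counts in HBE replicate 2, and the other 7 transcripts lie at 0 in HBE.

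AGAP2-AS1, named for its position opposite the coding gene AGAP2, was the abundant member and the one plainly present in both lines. AGAP2-AS1-201 had 1832, 1504 and 1814 counts in A549 replicates 1, 2 and 3, against 650, 463 and 366 in HBE. Its level was 30.4 ± 2.94 CPM in A549 and 9.30 ± 2.10 CPM in HBE (SD, n = 3 each), a ratio of 3.27 and a log2 fold change of 1.71 (SE 0.51). The A549 samples were close to each other, with the highest 1.21 times the lowest. AGAP2-AS1-201 held 76.7% of all A549 counts of the 9 transcripts. The authors' deposited table gives a log2 fold change of 1.75. With size factors or TMM factors taken from the table itself the log2 fold change was 3.05 to 3.07, more than 1.5 times the value above. Exons of AGAP2 lie opposite 57.7% of its bases, and the sources used here do not say if strand was used in counting. Reads of AGAP2 and AGAP2-AS1 may therefore be mixed there; AGAP2 was not analysed here.

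LINC01234-203 was the steadiest of the 7 transcripts without HBE counts. LINC01234-203 had 125, 131 and 102 counts in A549 replicates 1, 2 and 3, and none in HBE. Its level of 2.12 ± 0.312 CPM in A549 (SD, n = 3) was at least 111-fold higher than in HBE. LINC01234-201 had 13, 13 and 30 counts in A549 replicates 1, 2 and 3 and none in HBE, a bound of at least 17.4-fold. Repeated sequence found in other genes makes up 8.66% of LINC01234-201 on the same strand and 0% of LINC01234-203. Summed, these isoforms had 138, 144 and 132 counts in A549, a level of 2.45 ± 0.155 CPM (SD, n = 3), and none in HBE. They are 2 of 5 GENCODE transcripts of LINC01234, and the others were not analysed here.

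The LINC00662 isoforms of the table had the most counts among the 3 genes whose isoforms were near or at 0 in HBE. LINC00662-206, from the gene start, had 171, 233 and 138 counts in A549 replicates 1, 2 and 3 and none in HBE. Its level was 3.22 ± 0.915 CPM in A549 (SD, n = 3), at least 168-fold higher than in HBE. The downstream isoforms varied more between the A549 samples. LINC00662-201 had 67, 151 and 20 counts in A549 and none in HBE. The bound was at least 73.9-fold, and leaving out A549 replicate 2 lowered that bound to 40.2-fold. LINC00662-207 had 62, 104 and 17 counts in A549 and none in HBE, with a bound of at least 56.8-fold that became 36.5-fold when the same sample was left out. Both were lowest in A549 replicate 3. Summed over these 3 isoforms there were 300, 488 and 175 counts in A549 and none in HBE, a bound of at least 299-fold. GENCODE lists 9 transcripts of LINC00662, and the others were not analysed here, so this is no level of the whole gene.

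The LINC00511 isoforms of the table were together the least abundant of the 4 genes, although GENCODE lists 106 transcripts for LINC00511, of which 3 were in the table and the others were not analysed here. LINC00511-213 had 10, 19 and 28 counts in A549 replicates 1, 2 and 3, against 0, 2 and 0 in HBE. The ratio of its summed levels was 26.5, with an exact 95% interval of 7.02 to 224 that covers counting error only. The log2 fold change of LINC00511-213 was 4.49 (SE 1.13). Leaving out HBE replicate 2, which held its 2 HBE counts, gave 7.22 (SE 1.96). That value rests on no HBE count and is no measured fold. LINC00511-276, with no count in the HBE libraries, had 10, 20 and 13 counts in A549, a bound of at least 13.3-fold. LINC00511-292 had 7, 19 and 64 counts in A549 and none in HBE. Its bound was at least 27.9-fold, or 12.2-fold once A549 replicate 3 was left out. That isoform spread the most of the 9, its highest A549 level being 8.88 times its lowest.

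Per length, in FPKM, the A549 levels fell in a wide range. AGAP2-AS1-201 measured 20.3 ± 1.95 FPKM in A549 and 6.19 ± 1.40 FPKM in HBE (SD, n = 3 each). No other transcript of the 4 genes came near that range. AGAP2-AS1-201 had the highest A549 mean of the 301 annotated transcripts of the table with a positive log2 fold change. GACAT2-201, with a mean of 20.1 FPKM in A549, was close behind it. Of all 688, AGAP2-AS1-201 was in place 3. Next of the 9 were LINC01234-203 at 1.97 ± 0.294, LINC00662-206 at 1.56 ± 0.444 and LINC00662-207 at 1.23 ± 0.898 FPKM in A549 (SD, n = 3 each). Their sample ranges overlapped. LINC00662-201 followed at 0.57 ± 0.483, then LINC00511-292 at 0.26 ± 0.257 and LINC01234-201 at 0.218 ± 0.111 FPKM. LINC00511-213 and LINC00511-276 were lowest, at 0.145 ± 0.0681 and 0.118 ± 0.0467 FPKM. From place 2 to place 9 every transcript's range over the A549 samples overlapped that of the next, so the order among these neighbours is not beyond their spread. The median A549 level of the 301 was 0.405 FPKM, and 4 of the 9 transcripts stood at 1 FPKM or more, as did 13.8% of the 688. The 688 include transcripts lower in A549, so that share is no like-for-like background. Among the 301, those 4 were in places 1, 40, 57 and 68.

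**Figure D2:**
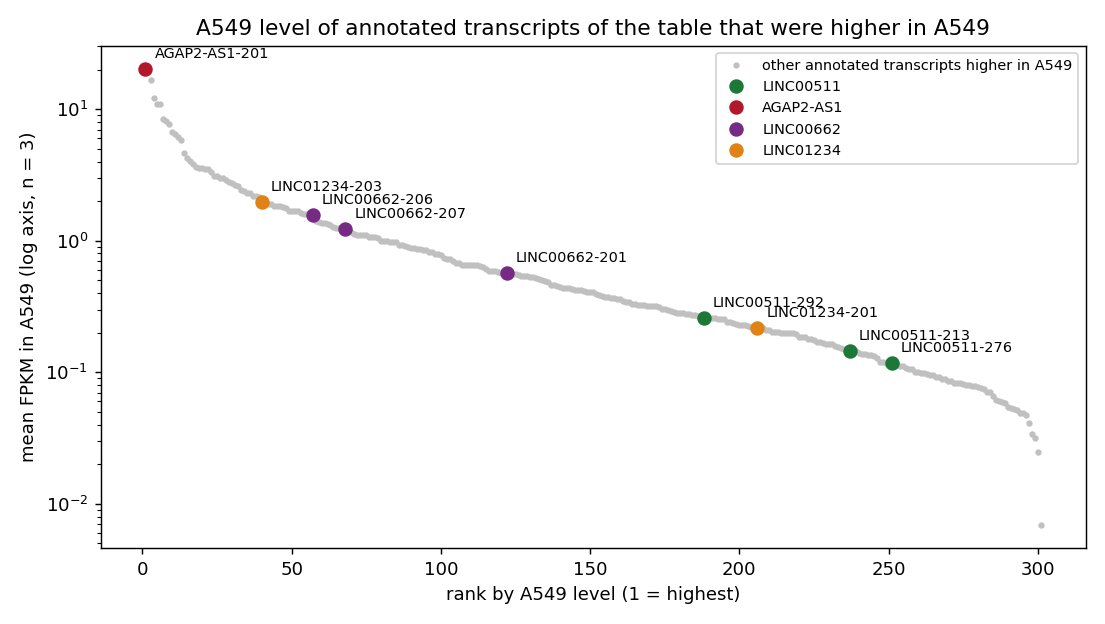
Mean A549 level in FPKM (log axis, n = 3) against rank for the 301 annotated transcripts of the table with a positive log2 fold change, with those of the 4 genes in colour and the others in grey. AGAP2-AS1-201 stands at rank 1, LINC01234-203 at rank 40, and LINC00511-276 at rank 251.

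Isoform shares within A549 are given over the isoforms in the table, which the authors had selected as differing between the lines, so the selection set which isoforms enter each total. LINC00662-206 made up 57%, 47.7% and 78.9% of the counts of the 3 LINC00662 isoforms in A549 replicates 1, 2 and 3, with exact 95% binomial intervals of 51.2% to 62.7%, 43.2% to 52.3% and 72.1% to 84.7%. The interval of replicate 3 overlapped neither of the others. LINC00662-201 and LINC00662-207, by contrast, had count ratios of 1.08, 1.45 and 1.18 to each other in the 3 samples. They share 305 exon bases and a junction, across an intron of 13130 bases, that GENCODE gives to no other transcript.

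LINC00511-292 was 25.9%, 32.8% and 61.0% of the counts of the 3 LINC00511 isoforms in A549 replicates 1, 2 and 3, with intervals of 11.1% to 46.3%, 21.0% to 46.3% and 50.9% to 70.3%. LINC00511-276 was 37.0%, 34.5% and 12.4% in the same samples, and its replicate 3 interval of 6.76% to 20.2% overlapped that of replicate 1, 19.4% to 57.6%. LINC00511-213 was 37.0%, 32.8% and 26.7%, with intervals that all overlapped. LINC01234-203 was 90.6%, 91.0% and 77.3% of the counts of the 2 LINC01234 isoforms, with intervals of 84.4% to 94.9%, 85.1% to 95.1% and 69.2% to 84.1%. For LINC00662-206, LINC00511-292 and LINC01234-203 the replicate 3 interval overlapped neither of the others. That sample also had the largest sum over the whole table, 608749 counts, against 305905 and 254246 in A549 replicates 1 and 2; its part in these shares was not tested. Intervals treat estimated counts as independent reads and cover counting error only.

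**Figure D3:**
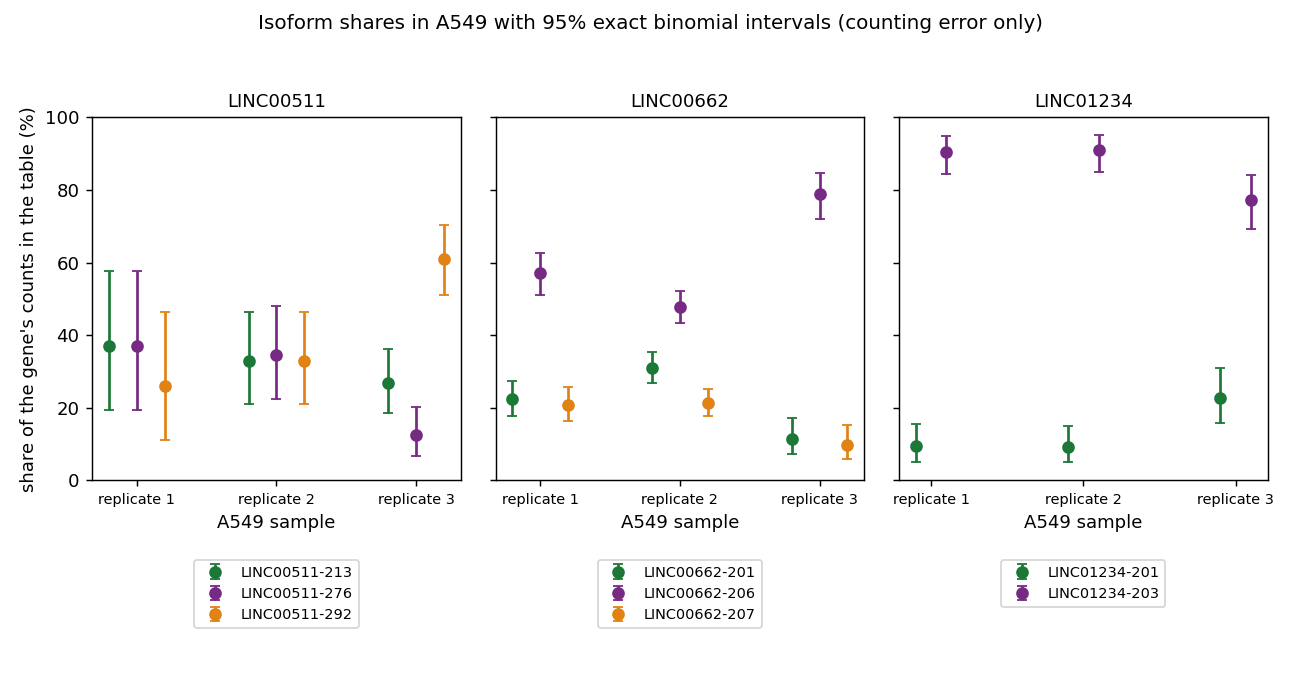
Share of each gene's counts in the table (percent) held by each isoform in the 3 A549 samples, with 95% exact binomial intervals as bars. LINC00662-206, LINC00511-292 and LINC01234-201 have their highest shares in replicate 3, at 78.9%, 61.0% and 22.7%.

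Other transcripts of the table within 1 Mb were found for LINC00662 and for none of the other 3 genes. There were 6, and all 6 had counts in A549 and none in HBE. AC006504.5, an lncRNA on the opposite strand whose annotated start lies 477 bases inside LINC00662, gave 4 of them, out of 12 GENCODE transcripts, the others of which were not analysed here. Summed, the 4 had 135, 98 and 183 counts in A549 replicates 1, 2 and 3, a level of 2.45 ± 0.704 CPM (SD, n = 3), and no count in HBE, a bound of at least 129-fold. AC005307.1-201, 624543 bases away, had 10, 2 and 34 counts in A549, and AC079466.1-201, 812748 bases away, had 31, 22 and 23. Exons of AC006504.5 and AC006504.7 lie opposite 8.04% of LINC00662-206. AC006504.5-202, AC006504.5-204 and AC006504.5-206 have 12.2% to 40.5% of their bases in opposite-strand transcripts such as those of LINC00662. AC006504.5-208 has 0% and had 72, 60 and 54 counts in A549. On all of chromosome 19, 26 of 51 annotated transcripts had a positive log2 fold change and 16 had no count in HBE. Both counts include the LINC00662 isoforms and the 6 neighbours, so they are no separate background.

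**Figure D4:**
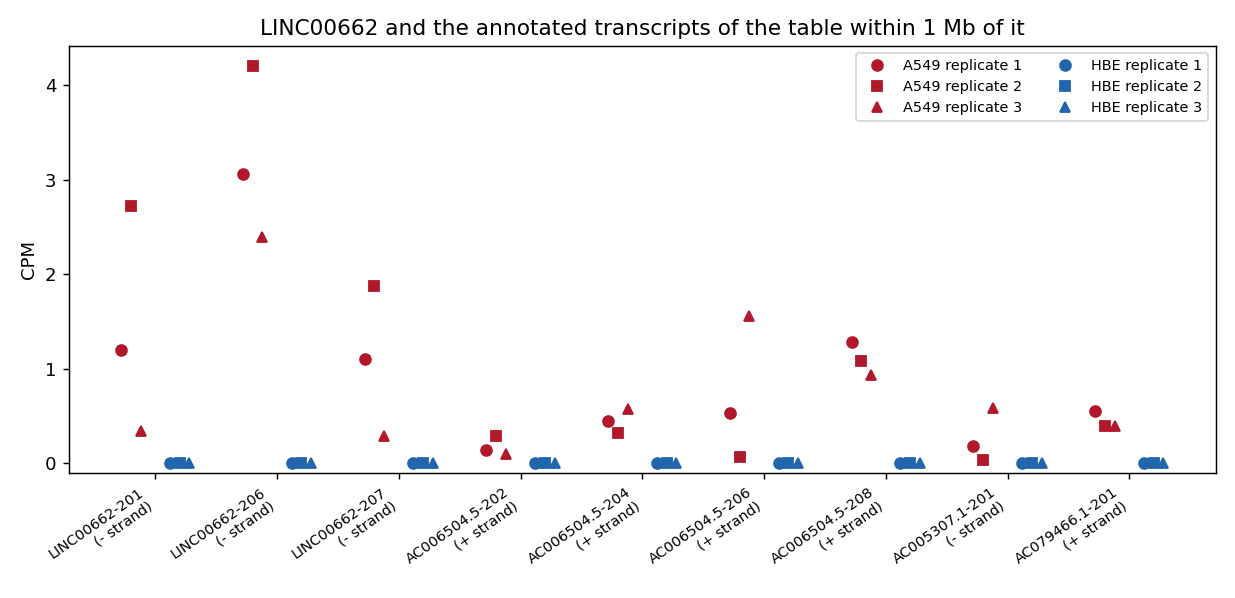
CPM in the 3 A549 samples (red) and the 3 HBE samples (blue) for the LINC00662 isoforms and the 6 other annotated transcripts of the table within 1 Mb, with their strands. Every HBE point is at 0, and LINC00662-206 has the highest A549 levels.

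The series as a whole concerns miR-342-5p as a partner of the lncRNA GLIDR, so the transcripts were searched for the 7 letters that pair with its seed, bases 2 to 8, in capitals here.
hsa-miR-342-5p: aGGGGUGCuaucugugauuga
The matching letters, GCACCCC, occurred 3 times in AGAP2-AS1-201 and not in the other 8 transcripts, nor in the 2 GLIDR transcripts of the table. The sites are shown with the match in capitals (GENCODE release 29, GRCh38, plus strand).
AGAP2-AS1-201 (chr12:57727618-57727640): gcagcacagGCACCCCggcattc
AGAP2-AS1-201 (chr12:57728252-57728274): aaggcggggGCACCCCcaccctt
AGAP2-AS1-201 (chr12:57728268-57728290): cacccttctGCACCCCagctgag
They begin at bases 771, 1405 and 1421 of 1500. Of the 688 annotated transcripts, 15.3% hold at least 1 match and 0.872% hold 3 or more. AGAP2-AS1-201 is also the richest of the 9 in G and C, at 63.5%, against 35.9% to 49.7% in the others. A match describes letters and shows no binding.

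Other lncRNAs described as promoting carcinoma growth did not share a direction. Of a list of 74 such genes, 24 had annotated transcripts in the table, 42 in all, of which 14 were higher and 28 lower in A549 by edgeR's quasi-likelihood test. Their median log2 fold change was -2.72, against -2.00 over all 1437 transcripts. Among all 1437 transcripts 47.6% were called higher and 52.3% lower. All of these transcripts had been chosen by the authors on these samples, so their counts carry no independent evidence on direction. With TMM factors, size factors or the DESeq2 Wald test 14 were called higher and 18 or 19 lower.

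By abundance the leading members of that list were SNHG15-202, AFAP1-AS1-201, SNHG14-226, SNHG15-203, CYTOR-216 and LINC00346-201. SNHG14-226, of an imprinted snoRNA host, was at 20.8 ± 9.36 CPM in A549 (SD, n = 3) with no count in HBE. LINC00346-201 was at 0.881 ± 0.0755 CPM in A549 and 8.28 ± 2.99 CPM in HBE (SD, n = 3 each). AFAP1-AS1-201 had 0.018 CPM in A549, from 3 counts, and 41.9 ± 14.6 CPM in HBE. CYTOR-216 and SNHG15-202 were lower in A549 by log2 fold changes of -1.52 and -1.68, calls that ended under all 3 scalings taken from the table; SNHG15-203, at -2.75, lost its call with the DESeq2 Wald test.

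Of 31 lncRNA genes described as restraining carcinoma growth, 6 were in the table with 9 transcripts. By the same test 5 transcripts were higher in A549 and 4 were lower, with a median log2 fold change of 1.39. Counted by gene, 3 went up and 3 went down, so the list leaned neither way. The median is the value of GAS5-213 itself, and several of the higher transcripts are isoforms of GAS5. GAS5-213, GAS5-207 and GAS5-217, of a growth-arrest snoRNA host gene, were higher, with GAS5-213 at 2.02 ± 0.529 CPM in A549 and 0.769 ± 0.158 CPM in HBE (SD, n = 3 each). GAS5-213 lost its call with the replicate number as a block. NKILA-202, SFTA1P-203 and SFTA1P-204 were lower. NKILA-202 was at 5.71 ± 1.81 CPM in A549 and 22.8 ± 4.79 CPM in HBE (SD, n = 3 each), and lost its call under the 3 scalings taken from the table.

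The genes whose sample profile was most like each of the 4 were found by the root mean square difference of centred log2(CPM + 0.1) over the 6 samples, with counts summed over a gene's transcripts in the table, among 259 annotated genes that averaged 50 or more counts in one of the lines. For LINC00511 they were LINC01193 (0.18), TMEM132D-AS1 (0.30) and CRNDE (0.32), against a median of 2.82 over the 259. All 3 were highest in A549 replicate 3, as LINC00511 was, which follows from how they were picked. For LINC01234 they were AC233701.1 (0.15), AP000525.1 (0.17) and AC023449.2 (0.28), against a median of 3.44. AP000525.1-201 shares 99.6% of its bases with AL022344.2 and DUXAP10, so its counts are uncertain.

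For LINC00662 they were AC079062.1 (0.32), LINC02212 (0.59) and AC092279.1 (0.62), against a median of 4.0. AC079062.1 had 547, 610 and 255 counts in A549 replicates 1, 2 and 3 and none in HBE, lowest in replicate 3 as LINC00662 was. AC092279.1 had 161, 218 and 292 counts in A549 and none in HBE, highest in that sample, and LINC02212 had 332, 163 and 167 counts in A549 and none in HBE. For AGAP2-AS1 the nearest genes were AC100810.1 (0.27), AC090970.2 (0.27) and AC027307.3 (0.28), against a median of 2.05. AC100810.1 was at 3.96 ± 0.216 CPM in A549 and 1.12 ± 0.241 CPM in HBE (SD, n = 3 each). All of these profiles come from the same 6 samples of 2 lines, on which the genes were picked, so the likeness is a description only. The medians also cover genes lower in A549 and are no like-for-like background.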

How the data were processed

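Per the submitters' processing notes, HISAT2, StringTie, DESeq2 and the build GRCh38 were used, without versions. The authors deposited 1 table of 1437 selected lncRNA transcripts with an estimated count and an FPKM per sample, with their own p-value and log2 fold change (A549 over HBE). The largest p-value was 0.00997; adjustment and strand use in counting are not given in the sources used here. All sample columns were matched.

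Library sizes were solved from count, FPKM and GENCODE release 29 transcript length, and returned 100% of nonzero annotated counts within 1 count. The estimated counts, already whole, were fitted on the whole table with edgeR 4.0.16 in R 4.3.3 (quasi-likelihood test, Benjamini-Hochberg threshold 0.05), scaled only by those sizes, and tested on simulated data. SEs are the log2 fold change over the square root of F. Bounds set no HBE count to 3 counts over the line. Alternatives used TMM, DESeq2 1.42.0, limma 3.58.1 on log2(FPKM + 0.1) and log2(FPKM + 1), a filter, a replicate block and each sample left out.

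The genes and lists were chosen with earlier results of these data known. Named were all transcripts of the 4 genes, the 3 most alike genes for each, table transcripts within 1 Mb, and the 6 most abundant of each list. Shared sequence was sought as exact 50-base words in GENCODE transcripts of other genes.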

Additional observations from a re-analysis of the deposited data

How the results depend on the processing

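The direction and call of the 9 transcripts were fixed by how they were chosen and are no sign of stability. A minimum of 10 counts in 3 samples kept 8 of them, leaving out LINC00511-292, and gave 941 calls because 943 transcripts were then tested. Without it 1435 of 1437 transcripts passed, 1301 to 1307 with scalings taken from the table, 1430 and 1379 with limma on log2(FPKM + 0.1) and log2(FPKM + 1), and 1408 to 1431 without 1 sample. Scalings taken from the table shifted the median log2 fold change by 0.86 to 1.40. With the replicate number as a block 1342 passed, and GAS5-213 lost its call (log2 fold change 1.37, edgeR adjusted p = 0.0655). So did AC090970.2-201 (1.84, edgeR adjusted p = 0.0914) and AC027307.3-201 (1.58, edgeR adjusted p = 0.0583), of genes named as most like AGAP2-AS1. Same-numbered samples did not deviate together (correlations of 0.011, -0.0084 and -0.05), so no pairing was seen. Many transcripts have no count in a line and cannot deviate there, so this check cannot show that the numbers pair nothing. The order of levels per length kept 9 of 9 places with CPM per kilobase, and 5 to 9 of 9 without 1 A549 sample; the 5 came without replicate 3. Counts of 7 to 64 per A549 sample limit the precision of the LINC00511 transcripts and LINC01234-201.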
